A study of Rattus norvegicus with 9 samples.

Results

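The transcripts of 10 matricellular protein genes were examined in rat heart after ischemia and reperfusion: the thrombospondins Thbs1, Thbs2, Thbs3 and Thbs4, the CCN genes Ccn1 and Ccn2, tenascin C (Tnc), osteopontin (Spp1), periostin (Postn) and Sparc. They were chosen by gene symbol. Each of the 10 was represented by 1 probe set with a single gene symbol, out of 21013 genes with a single symbol and 65403 probe sets tested.

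Matricellular proteins are secreted into the extracellular matrix, where they act on cell adhesion, matrix assembly and growth factor activity and contribute little to the scaffold itself. Most are scarce in the resting adult heart and are known to be made by fibroblasts, endothelial cells, platelets and macrophages when tissue is injured. Thbs1 and several CCN proteins are also products of early response genes, whose transcription can be switched on within a short time of stretch, hypoxia or serum.

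RNA of the left ventricle of male Wistar rats was hybridized to 9 Affymetrix arrays, 3 per group. In the IRI + RPostC group (ischemia/reperfusion injury with remote ischemic postconditioning), the left anterior descending coronary artery was occluded for 45 min, and 3 cycles of a 30 s clamp and a 30 s release of the left femoral artery followed. In the IRI group the coronary artery was occluded for 45 min without the femoral clamp, both of these groups had 15 min to stabilize before the chest was closed, and in the control group a thread was placed for 60 min without occlusion; chest surgery and pentobarbital were common to the groups. The growth and surgery notes also mention a ligation of 30 min, and they state neither the age of the rats nor the time at which tissue was taken for RNA. Nothing says that each array holds RNA of its own animal, so the tests rest on the spread between arrays, which may be technical. The comparisons ask which genes differ after ischemia and reperfusion and whether the femoral clamp changes that response.

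All values are deposited log2 signals after robust multichip analysis, a method that corrects, normalizes and summarizes probes, and signals are compared between groups within 1 probe set only. Between 2267 and 2287 probe sets on IRI + RPostC arrays, 2212 and 2261 on IRI arrays and 348 and 402 on control arrays were above 16, the log2 of the top of a 16-bit scan. At or above 19 on all 6 IRI + RPostC and IRI arrays and on no control array lay 1739 probe sets. Identical values on those 6 arrays were found for 6.07% of probe sets. The 4 hybridization control probe sets, for material added to every array, averaged 10.44 in IRI + RPostC, 10.42 in IRI and 11.21 in control. A probe set under 4.82 was taken as not above background, this being the 95th percentile of 272 odorant, vomeronasal and taste receptor probe sets. Fewer cells of a type and less RNA per cell cannot be told apart in whole tissue.

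Of the 10 genes, 4 passed an adjusted p of 0.05 in IRI + RPostC against control, all of them higher, where 17.7% of all probe sets were called, 10.7% higher and 6.95% lower. The same number passed in IRI against control, again all higher, against 16.2% of probe sets called, 9.95% higher and 6.26% lower. The arrays of 4 genes did not overlap between IRI + RPostC and control and those of 5 between IRI and control, as for 32.9% and 29.4% of probe sets. Thbs1, Thbs2, Ccn1 and Sparc passed in both comparisons, which share their 3 control arrays. Called probe sets were commoner among bright ones: of the 5627 single-symbol probe sets with a mean of at least 6, 45.3% were called in IRI + RPostC and 42.7% in IRI against control, and 6 of the 10 genes had such a mean, of which the 4 passed. None of the 10 passed between IRI + RPostC and IRI, where the percentage of probe sets called by limma was 0 and 1 of the 10 genes (Thbs2) and 3.51% of probe sets had an unadjusted p under 0.05. The methods' t-test also called 0 after Benjamini-Hochberg adjustment, which was applied here and is not named in the methods for this test, and gave 1444 probe sets, with 0 of the 10 genes among them, at an unadjusted p under 0.05. The median difference of the 10 genes was 0.06 in IRI + RPostC and 0.07 in IRI against control, beside -0.06 and -0.04 over all probe sets.

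The promoters of Thbs1, Ccn1 and Sparc are shown because these genes passed as higher, as deposited, in both comparisons with control, and that of Ccn2 because it is the CCN relative of Ccn1 that did not pass. Each sequence runs 5′ to 3′ from 250 bases before to 50 after the start of the gene in RefSeq (build GRCr8), and capitals mark GGAATG on either strand, the letters to which TEAD factors bind as partners of YAP.
Thbs1, chr3:125510000-125510299, plus strand: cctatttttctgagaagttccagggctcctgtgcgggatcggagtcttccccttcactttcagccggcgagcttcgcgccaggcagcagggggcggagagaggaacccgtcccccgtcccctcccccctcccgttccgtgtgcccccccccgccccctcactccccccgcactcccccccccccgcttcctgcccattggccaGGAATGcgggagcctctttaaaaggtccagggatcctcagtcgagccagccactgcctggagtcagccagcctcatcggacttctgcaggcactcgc
Ccn1, chr2:237225640-237225939, minus strand: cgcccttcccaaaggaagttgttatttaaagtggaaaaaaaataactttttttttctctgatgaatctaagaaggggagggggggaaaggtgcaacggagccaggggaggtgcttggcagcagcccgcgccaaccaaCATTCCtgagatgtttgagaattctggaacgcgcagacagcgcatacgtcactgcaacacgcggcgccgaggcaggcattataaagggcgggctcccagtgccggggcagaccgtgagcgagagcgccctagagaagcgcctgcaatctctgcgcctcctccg
Sparc, chr10:40038767-40039066, minus strand: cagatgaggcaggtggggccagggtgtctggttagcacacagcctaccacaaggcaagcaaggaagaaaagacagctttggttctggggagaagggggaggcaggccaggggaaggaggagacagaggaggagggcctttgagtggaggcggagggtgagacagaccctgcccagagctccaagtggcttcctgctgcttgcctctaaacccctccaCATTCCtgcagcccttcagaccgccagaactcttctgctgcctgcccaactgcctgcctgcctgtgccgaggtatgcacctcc
Ccn2, chr1:22624565-22624864, minus strand: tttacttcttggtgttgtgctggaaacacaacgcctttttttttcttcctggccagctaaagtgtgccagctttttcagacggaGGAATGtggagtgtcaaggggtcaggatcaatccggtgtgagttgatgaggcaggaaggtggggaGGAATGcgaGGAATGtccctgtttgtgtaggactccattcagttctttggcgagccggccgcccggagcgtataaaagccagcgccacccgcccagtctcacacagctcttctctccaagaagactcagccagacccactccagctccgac

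The letters GGAATG occurred in the promoters of 5 of the 9 genes in the promoter table (all but Thbs2) and in 14.2% of 33469 promoters of the same length. Ccn2 held 3 matches, at positions -166, -101 and -92 from its start. Ccn1 held 1 at -113, Thbs1 1 at -47, Sparc 1 at -33 and Thbs4 1 at -178. Searched on both strands, TATAAA occurred in 5 of the 9 promoters (14.2% of all), GGGCGG in 6 (33.1% of all), and the AP-1 letters TGANTCA (7.33% of all), the cAMP response letters TGACGTCA (1.83%) and the CArG box of serum response factor (1.64%) in 0. Genes with a match thus included Thbs1, Ccn1 and Sparc, which passed, and Ccn2 and Thbs4, which did not. A match describes the letters only.

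Thbs1 encodes thrombospondin 1, a trimeric glycoprotein that is stored in platelet granules and activates latent TGF-beta. Its log2 signal was 19.91 on each of the 3 IRI + RPostC arrays, 19.46, 19.60 and 19.91 on the IRI arrays, and 8.48, 9.08 and 8.02 on the control arrays. All 6 arrays of the ischemic groups lay far above all control arrays, and 1 IRI array had the very value of the IRI + RPostC arrays. The means were 19.91 ± 0.00 in IRI + RPostC, 19.66 ± 0.23 in IRI and 8.53 ± 0.53 in control (SD, n = 3 each). Thbs1 was higher by 11.39 in IRI + RPostC (limma, 95% interval 10.79 to 11.98, adjusted p = 1.26e-07) and by 11.13 in IRI (10.54 to 11.72, adjusted p = 1.42e-07) than in control. The direction can be read but not the exact size, and no linear fold or rank is given, because the signals of both ischemic groups exceed the range of a 16-bit scan and 4 of those arrays share 1 value. Under the 15 alternatives that could be computed, Thbs1 stayed called in both comparisons, with a difference of 7.44 to 12.16 in IRI + RPostC and 7.30 to 11.92 in IRI. Between IRI + RPostC and IRI the difference was 0.25 (interval -0.34 to 0.85).

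Thbs2, the closest relative of Thbs1, lacks its TGF-beta activating site and is known as an inhibitor of angiogenesis. Its log2 signals were 7.07, 6.95 and 7.31 in IRI + RPostC, 6.94, 6.83 and 6.74 in IRI, and 6.45, 6.33 and 6.22 in control. The 3 groups formed separate ranges, with IRI + RPostC highest and control lowest, although the highest IRI array lay just under the lowest IRI + RPostC array. Thbs2 was higher than control by 0.78 in IRI + RPostC (limma, interval 0.53 to 1.04, adjusted p = 0.00207) and by 0.50 in IRI (interval 0.25 to 0.76, adjusted p = 0.0181). Between IRI + RPostC and IRI the difference was 0.28 (limma, interval 0.02 to 0.53, adjusted p = 1); it was 1 of 2 of the 10 genes whose arrays did not overlap in that comparison, as for 5.82% of all probe sets. After quantile normalization neither difference from control passed (0.27, adjusted p = 0.101, in IRI + RPostC and 0.09, adjusted p = 0.596, in IRI). The IRI call was also lost without IRI replicate 1 (0.45, adjusted p = 0.0643), IRI replicate 2 (0.51, adjusted p = 0.0572), control replicate 2 (0.50, adjusted p = 0.0528) or control replicate 3 (0.45, adjusted p = 0.0571), and with the replicate number as a block (0.50, adjusted p = 0.0501). Over its alternatives the adjusted p in IRI ran between 8.91e-05, after centring on the hybridization controls, and 0.596.

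Thbs3 and Thbs4 belong to the pentameric thrombospondins, of which Thbs4 is known in mouse hearts as a protein of pressure overload and the endoplasmic reticulum stress response. Thbs3 was not above background on any array, and 7 of the 9 arrays shared the value 4.67. Thbs4 had 4.96, 4.79 and 4.79 in IRI + RPostC, 4.79, 4.69 and 4.72 in IRI, and 4.79, 4.85 and 4.79 in control, with 7 of the 9 arrays under the background limit. At this brightness a difference between groups was not detectable for either gene.

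Ccn1 encodes CYR61, a ligand of integrins and heparan sulfate proteoglycans and a target of YAP and serum response factor. Its log2 signals were 13.36, 13.42 and 12.97 in IRI + RPostC, 13.27, 12.86 and 13.95 in IRI, and 7.82, 7.99 and 8.21 in control. The ischemic groups overlapped each other and lay above every control array, all of the values were distinct, and none exceeded 16. Ccn1 averaged 13.25 ± 0.24 in IRI + RPostC, 13.36 ± 0.55 in IRI and 8.01 ± 0.19 in control (SD, n = 3 each). It was higher than control by 5.24 (37.9-fold; limma, interval 4.59 to 5.90, adjusted p = 8.70e-06) in IRI + RPostC and by 5.35 (40.9-fold; interval 4.70 to 6.01, adjusted p = 7.95e-06) in IRI, ranking 65 of 21013 genes in IRI + RPostC and 47 in IRI. All 17 alternatives kept both calls, with differences of 3.27 to 6.01 in IRI + RPostC and 3.57 to 6.14 in IRI. Between IRI + RPostC and IRI, Ccn1 differed by -0.11 (interval -0.76 to 0.54), so that a difference of over 0.76 in either direction lay outside the interval.

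Ccn2 encodes CTGF, a fibroblast growth and matrix factor that is induced by TGF-beta and YAP. The log2 signal was 6.52 on all 3 IRI + RPostC arrays, 6.52, 6.52 and 6.80 on the IRI arrays, and 6.79, 6.52 and 6.50 on the control arrays. The groups overlapped, and 1 array each of IRI and control stood above the rest. Ccn2 differed from control by -0.09 in IRI + RPostC (limma, interval -0.33 to 0.16, adjusted p = 0.600) and by 0.01 in IRI (interval -0.24 to 0.25, adjusted p = 0.985). These values depended on the scaling of the arrays: after quantile normalization they were -0.60 in IRI + RPostC (adjusted p = 0.00195) and -0.45 in IRI (adjusted p = 0.00923). After centring on the hybridization controls they were 0.68 in IRI + RPostC (adjusted p = 0.0367) and 0.80 in IRI (adjusted p = 0.0174). Under that centring the limma adjusted p followed the size of the difference: Thbs3, at 0.79 in IRI, also had 0.0174. Such an adjusted p does not measure the spread of a single gene between arrays.

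**Figure D1:**
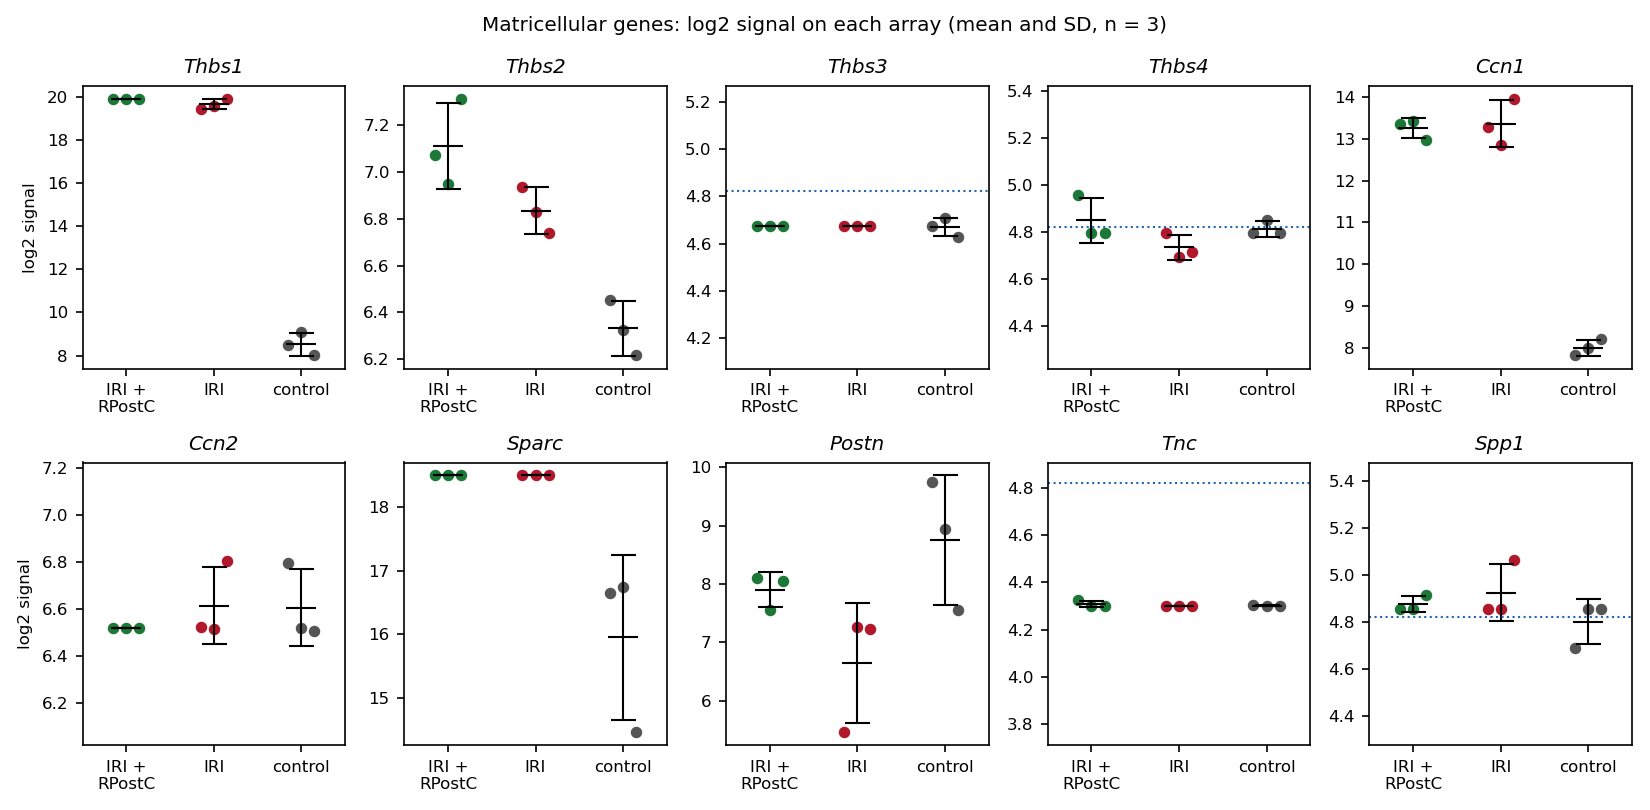
Log2 signal (vertical axis, its own range in each panel) of the 10 matricellular genes on each of 3 IRI + RPostC, 3 IRI and 3 control arrays, with the mean and SD as bars and the background limit of 4.82 as a dotted line where it falls within the panel. Thbs1 and Ccn1 separate all 6 arrays of the ischemic groups from the control arrays, Sparc has 1 value on those 6 arrays, and Thbs3 and Tnc lie under the limit on all 9 arrays.

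Sparc encodes osteonectin, a collagen-binding protein made by fibroblasts and endothelial cells. Its log2 signal was 18.50 on all 6 arrays of the IRI + RPostC and IRI groups, identical to the last digit deposited, and 16.65, 16.75 and 14.46 on the control arrays. The control arrays were all lower and spread widely, with 1 of them apart from the other two, whereas the ischemic groups had no spread at all. As deposited, Sparc was higher than control by 2.55 in IRI + RPostC (limma, interval 1.22 to 3.88, adjusted p = 0.0193) and in IRI (adjusted p = 0.0205), but after quantile normalization the difference turned to -2.65 in IRI + RPostC and -2.57 in IRI, both called. With the pair of groups fitted alone, without any 1 array of the ischemic groups, or with the methods' t-test it did not pass (adjusted p up to 0.145 in IRI + RPostC and 0.160 in IRI), and without control replicate 3 it was 1.80; over its alternatives the adjusted p ran between 3.56e-28 and 0.145 in IRI + RPostC and between 1.88e-28 and 0.160 in IRI. The smallest of these came from centring on the hybridization controls, where the adjusted p did not measure the spread of Sparc between arrays.

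Postn encodes periostin, a collagen cross-linking partner that marks activated fibroblasts after infarction. It had 8.10, 7.56 and 8.05 in IRI + RPostC, 5.47, 7.27 and 7.22 in IRI, and 9.75, 8.95 and 7.56 in control. Every IRI array lay under every array of both other groups, 1 IRI array lay far below its group, and the IRI + RPostC arrays overlapped the lower end of control. The means were 7.90 ± 0.30 in IRI + RPostC, 6.65 ± 1.03 in IRI and 8.75 ± 1.11 in control (SD, n = 3 each). Postn differed from control by -0.85 in IRI + RPostC (limma, interval -2.42 to 0.73, adjusted p = 0.423) and by -2.10 in IRI (interval -3.67 to -0.52, adjusted p = 0.0838), so neither passed. The IRI difference did pass after quantile normalization (-3.35, adjusted p = 0.0129), after centring on the hybridization controls (-1.31, adjusted p = 7.04e-05), with dim probe sets removed (-2.10, adjusted p = 0.0423) and without control replicate 3 (-2.69, adjusted p = 0.0317), within a range of 7.04e-05 to 0.302 over all its alternatives. Postn was the gene of the 10 with the largest difference between IRI + RPostC and IRI, 1.25 (interval -0.33 to 2.82, adjusted p = 1), and the 18th highest of 21013 genes there. That difference passed only after centring on the hybridization controls (1.23, adjusted p = 0.0127), and it fell to 0.65 when IRI replicate 1 was left out. The adjusted p-values after that centring followed the size of the difference and not the spread of Postn between arrays.

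Tnc encodes tenascin C, a hexameric glycoprotein that reappears at the border of infarcts, and Spp1 encodes osteopontin, a cytokine of macrophages that binds integrins and CD44. Tnc was not above background on any array, with signals of 4.30 to 4.32. Spp1 had 4.86, 4.86 and 4.91 in IRI + RPostC, 4.86, 4.85 and 5.07 in IRI, and 4.69, 4.86 and 4.86 in control. The groups of Spp1 shared the value 4.86 and overlapped, and its differences from control were 0.07 in IRI + RPostC and 0.12 in IRI (adjusted p = 0.526 and 0.329). Neither transcript could thus be measured as changed at this signal.

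**Figure D2:**
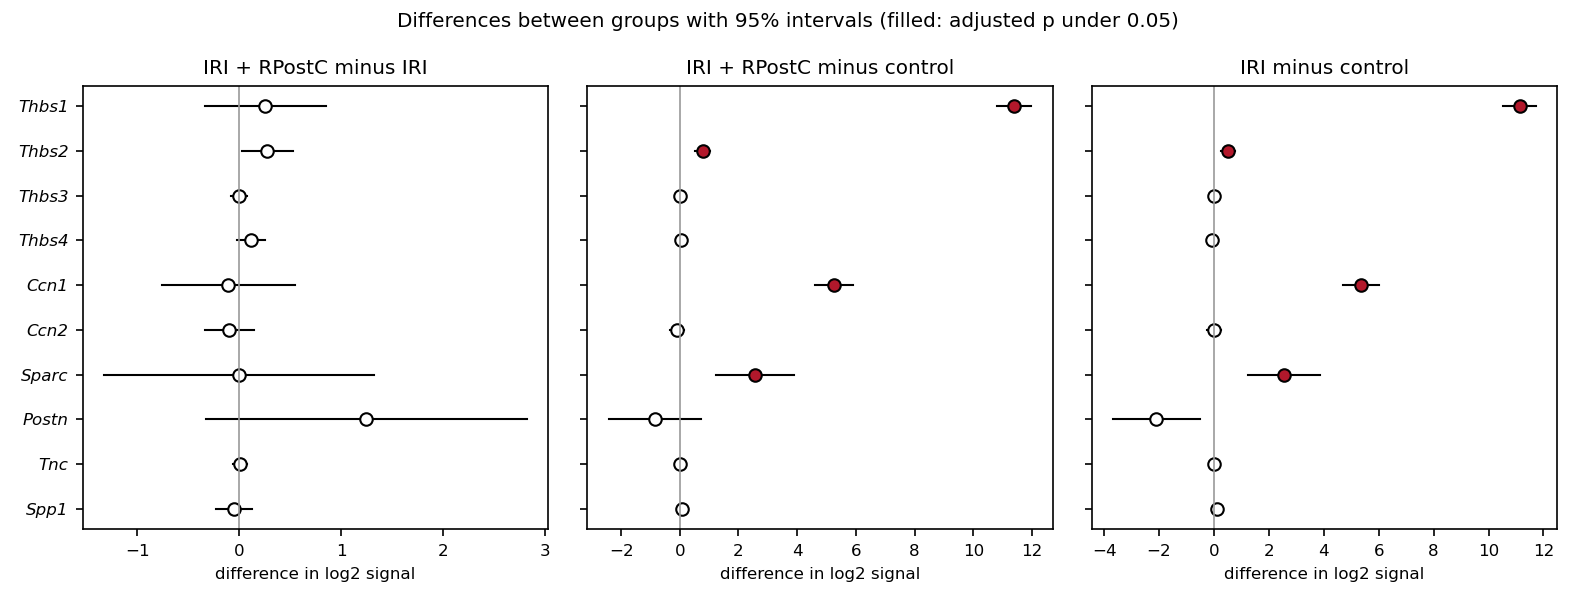
Differences in log2 signal (horizontal axes, 1 scale per panel) of the 10 genes for IRI + RPostC minus IRI, IRI + RPostC minus control and IRI minus control, as points with 95% intervals, filled where the adjusted p was under 0.05. Thbs1, Thbs2, Ccn1 and Sparc are filled in both comparisons with control, and no point is filled between IRI + RPostC and IRI.

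Scaling of the arrays moved the calls over all probe sets as well as those of the 10 genes. Among called probe sets, those higher made up 60.7% in IRI + RPostC and 61.4% in IRI against control as deposited, 35.4% and 34.7% after quantile normalization, 75.8% and 71.8% after centring on the median, and 98.3% in both after centring on the hybridization controls. Hybridization centring raised the median over all probe sets by 0.77 for IRI + RPostC and 0.79 for IRI, and median centring by 0.12 for IRI + RPostC. Relative to those shifts Thbs1 and Ccn1 remained the 2 genes of the 10 with the largest differences under all 4 scalings, whereas the small positive values of Thbs3, Thbs4, Tnc and Spp1 under hybridization centring (0.71 to 0.91 in IRI) were about the size of the shift.

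**Figure D3:**
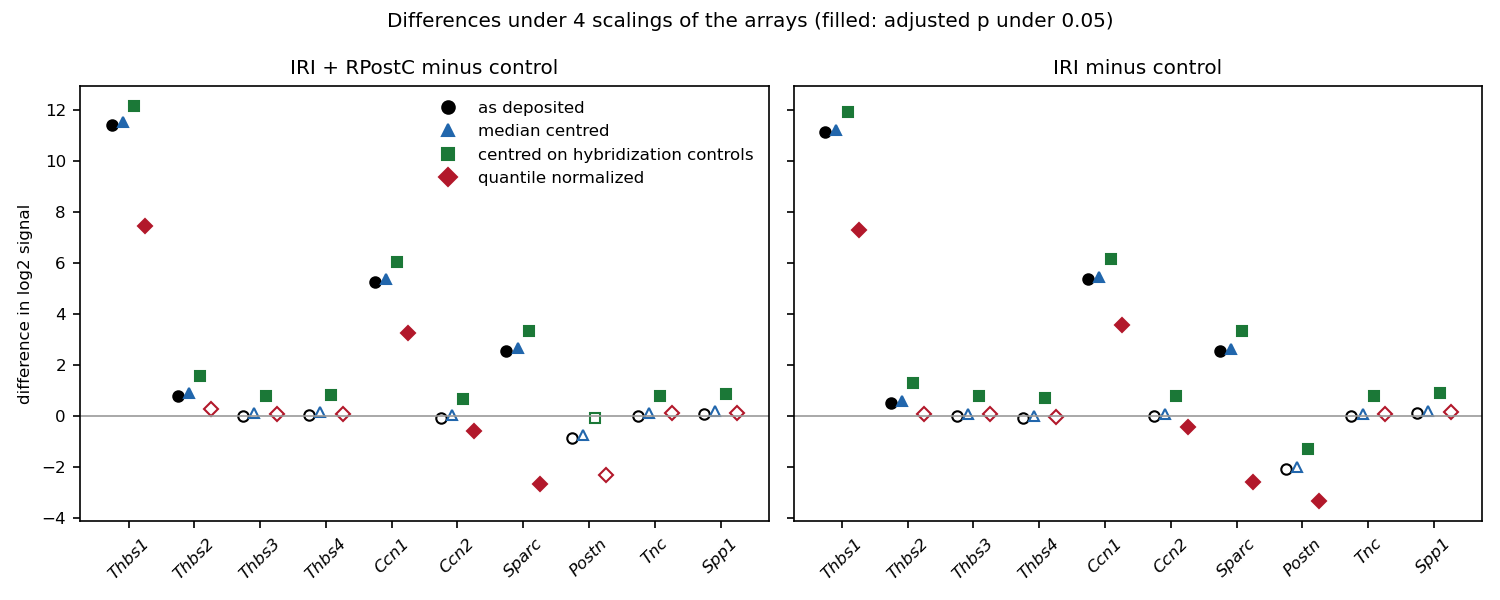
Difference in log2 signal from control (vertical axis) of the 10 genes in IRI + RPostC and in IRI, under 4 scalings of the arrays shown by shape and colour, filled where the adjusted p was under 0.05. Thbs1 and Ccn1 are positive and filled under all 4 scalings, while Sparc is at 2.55 as deposited and negative after quantile normalization.

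Receptors and partners through which matricellular proteins act were measured for 28 of 30 listed genes. Of these 11 were higher and 3 lower in IRI + RPostC than in control, and 9 were higher and 4 lower in IRI, with a median difference of 0.40 and 0.44, but after quantile normalization 4 were higher and 11 lower in IRI + RPostC and 3 higher and 11 lower in IRI. For this list and those below, 45.3% and 42.7% of single-symbol probe sets with a mean of at least 6 were called as deposited. Over all probe sets, bright and dim, the shares were 17.7% and 16.2%. After quantile normalization 5070 of 65403 probe sets were higher and 9271 lower in IRI + RPostC, and 4744 higher and 8946 lower in IRI. No share among bright probe sets was computed for that scaling. The lists mix bright and dim genes, so none of these shares is matched to them. Itgav, a chain of RGD-binding integrins, and Itga9, a chain of a receptor for osteopontin and tenascin C, were higher by 1.11 and 0.86 in IRI + RPostC (adjusted p = 1.13e-04 and 6.22e-05) and by 0.93 and 0.72 in IRI (adjusted p = 3.33e-04 and 1.78e-04), and stood at 0.02 and 0.15 in IRI after quantile normalization. Sdc4, a heparan sulfate coreceptor of thrombospondin and CCN proteins, was higher by 1.75 in IRI + RPostC and 1.29 in IRI. It kept a positive, called difference under all 4 scalings in IRI (0.97 after quantile normalization, adjusted p = 0.00304). Cd36, the scavenger receptor that binds the type 1 repeats of thrombospondin, was higher by 3.67 and 3.64 as deposited and turned to -2.37 in IRI + RPostC and -2.32 in IRI after quantile normalization. Itgb5, a partner chain of Itgav, differed from control by -0.46 in IRI + RPostC and -0.62 in IRI as deposited and by 0.16 in IRI after centring on the hybridization controls.

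Other matricellular genes included 3 higher and 2 lower of 20 measured in IRI + RPostC and 1 higher and 2 lower in IRI as deposited, and 0 higher and 5 lower in each after quantile normalization. Sparcl1, the endothelial and muscle relative of Sparc, averaged 15.63 ± 0.13 in IRI + RPostC, 15.52 ± 0.05 in IRI and 11.21 ± 0.55 in control, and like Sparc it turned in sign after quantile normalization (4.31 in IRI as deposited, -3.00 after it). Smoc2, a calcium-binding relative of Sparc, was not above background on any IRI + RPostC or IRI array and averaged 5.41 ± 0.03 in control. Of the 20 genes, 9 were under the background limit on all arrays of every group, among them Comp, Ccn4, Tnr and Tnn, relatives of the thrombospondins, CCN genes and tenascins. Smoc1 was also among them, although it was 1 of the 2 called lower in IRI + RPostC (-0.15, limma, adjusted p = 0.0272).

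Enzymes that cut, inhibit the cutting of or cross-link matrix proteins were represented by 14 of 16 listed genes, of which 6 were higher and 0 lower in each comparison with control as deposited, and 3 higher and 3 lower in IRI + RPostC and 3 higher and 4 lower in IRI after quantile normalization. Plat (tissue plasminogen activator) averaged 13.81 ± 0.15 in IRI + RPostC, 12.65 ± 0.15 in IRI and 5.80 ± 0.12 in control. Adamts1, a protease that cleaves thrombospondins, averaged 14.51 ± 0.40, 13.89 ± 0.74 and 7.05 ± 0.22 in the same groups. Timp1, an inhibitor of metalloproteinases, was higher than control by 5.56 in IRI + RPostC and 4.54 in IRI. These 3 genes stayed higher under all 4 scalings, with IRI differences of 5.79, 5.19 and 3.85 after quantile normalization. Between IRI + RPostC and IRI, Plat differed by 1.16 and Timp1 by 1.02. As deposited 0 of the 14 genes passed adjustment in that comparison, and after centring on the hybridization controls 1 passed, Plat (1.14, adjusted p = 0.0370). That adjusted p followed the size of the difference and not the spread of Plat between arrays.

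Genes known as targets of YAP or serum response factor, with the factors themselves, included 11 higher and 4 lower of 23 in IRI + RPostC and 10 higher and 3 lower in IRI, against 4 higher and 9 lower and 3 higher and 9 lower after quantile normalization. Egr1, an early response transcription factor, averaged 12.56 ± 0.32 in IRI + RPostC, 12.49 ± 0.35 in IRI and 5.94 ± 0.52 in control. Fos, of the same class, was higher than control by 5.91 in IRI + RPostC and 6.06 in IRI, and both genes stayed higher under all 4 scalings (5.46 for each in IRI after quantile normalization). Acta2 (smooth muscle actin), a target of serum response factor, was lower under all 4 scalings, with differences of -4.01 in IRI + RPostC and -4.06 in IRI as deposited. Crim1 and Myof were called higher as deposited (0.75 and 0.42 in IRI) but not after quantile normalization (0.11 each in IRI). Amotl2 was called higher under all 4 scalings (0.51 in IRI as deposited). Ankrd1, Tagln and Cnn1 did not pass as deposited. Acta2, Tagln and Cnn1 are also among the smooth muscle markers below. Of the factors, Srf differed as deposited by -1.07 in IRI + RPostC and -1.17 in IRI (limma, adjusted p = 0.00722 and 0.00495). Tead1 differed by -0.96 and -0.89 (adjusted p = 0.0288 and 0.0407) and Yap1 by 0.21 and 0.18 (adjusted p = 0.0108 and 0.0197). Wwtr1, Mrtfa and Mrtfb did not pass in either comparison as deposited. After quantile normalization Wwtr1 was called lower, at -0.79 in IRI + RPostC (limma, adjusted p = 0.00197) and -0.94 in IRI (adjusted p = 8.25e-04). The values of Srf, Tead1 and Yap1 are given as deposited only. Of 17 measured TGF-beta ligands and targets, 4 were higher and 1 lower in each comparison as deposited, and 3 higher and 4 lower in IRI + RPostC and 2 higher and 6 lower in IRI after quantile normalization. Bhlhe40 had the largest difference of this list as deposited, higher by 6.89 in IRI + RPostC and 5.89 in IRI. The ligands Tgfb1, Tgfb2 and Tgfb3 did not pass in either comparison as deposited. Skil, a negative regulator that TGF-beta induces, was higher by 2.95 in IRI + RPostC and 2.55 in IRI. Fn1 (fibronectin) was higher by 1.76 in IRI + RPostC and 1.03 in IRI. After quantile normalization Fn1 was at 0.86 in IRI + RPostC and did not pass in IRI (0.32, adjusted p = 0.126). Angptl4, a secreted regulator of lipoprotein lipase, was lower in both groups under all 4 scalings, with differences of -1.61 in IRI + RPostC and -1.68 in IRI as deposited. No gene of the YAP and serum response factor list or of the TGF-beta list passed between IRI + RPostC and IRI, as deposited or under the 3 other scalings.

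**Figure D4:**
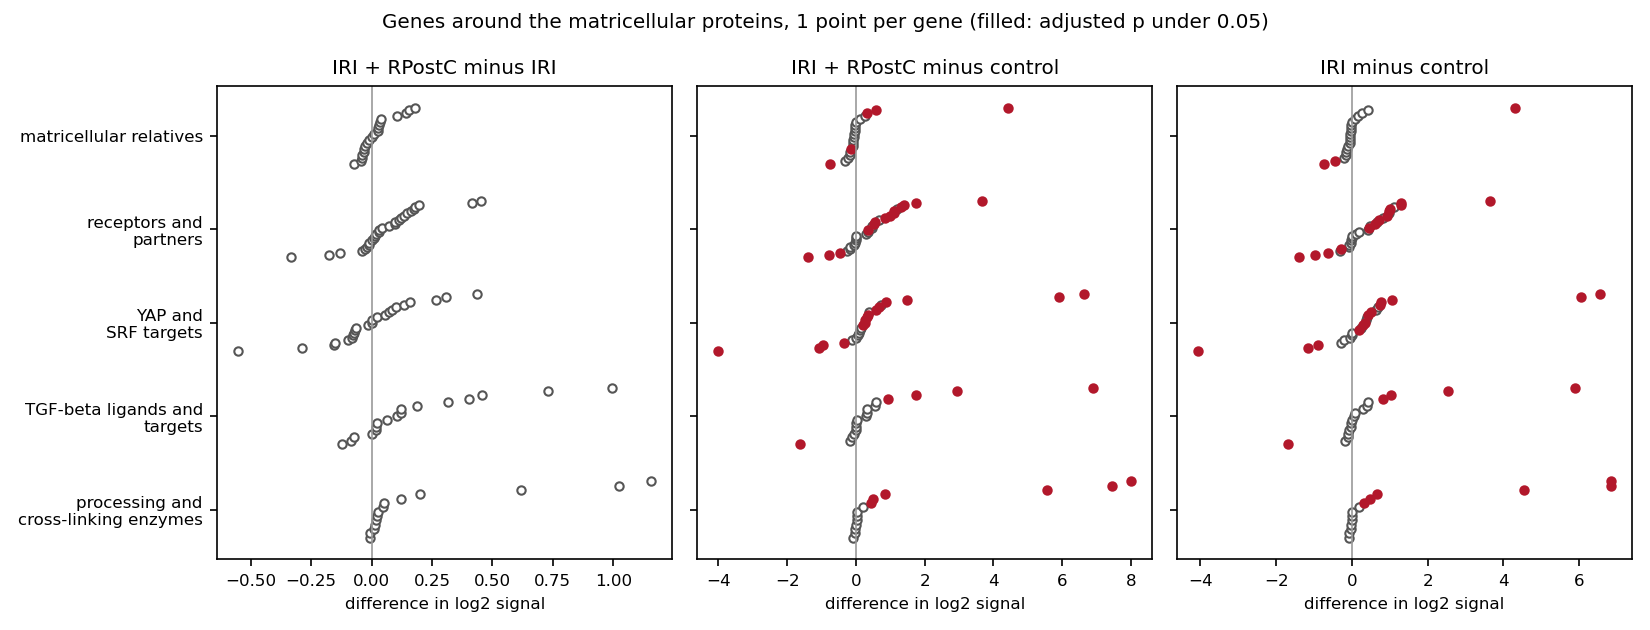
Differences in log2 signal (horizontal axes, 1 scale per panel) of the genes around the matricellular proteins, 1 point per gene in 5 lists, for IRI + RPostC minus IRI, IRI + RPostC minus control and IRI minus control, filled where the adjusted p was under 0.05. In both comparisons with control the enzymes have 6 filled points, all positive, and no point is filled between IRI + RPostC and IRI.

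Genes whose signals followed each member most closely over the 9 arrays were searched among 3599 protein-coding genes with a mean of at least 6. Genes with any array at 19 or more, or with identical values throughout a group, were left out of the search. Thbs1, Ccn2 and Sparc were themselves outside the searched set for this reason, and Thbs3, Thbs4, Tnc and Spp1 for a mean under 6. Genes with tied or very bright signals like those of Thbs1 and Sparc could therefore not be listed. The 9 points fall into the 3 groups and share each array's scaling, so the correlations are given without a test. Among the genes searched, Thbs1 was most like Depp1 (r = 0.998), Cd48 (r = 0.998) and Cd63 (r = 0.996). Ccn1 was most like Akr1c15 (r = 0.997), Adamts1 (r = 0.995) and Egr1 (r = 0.995). Thbs2 was most like Igfbp3 (r = 0.985), the insulin-like growth factor binding protein. Within the same searched set, Sparc was most like the ribosomal protein gene Rpl7a (r = 0.995), and Postn like Rpl30l1 (r = 0.968).

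Markers of cells that can make or carry these proteins also differed between groups. The mean log2 signal of 10 measured cardiomyocyte markers was 16.9 to 17.1 on IRI + RPostC arrays, 16.8 to 17.2 on IRI arrays and 16.3 to 16.4 on control arrays. These means lay above 16, the log2 of the top of a 16-bit scan. Of the 10 markers, 2 were higher and 0 lower in each comparison with control as deposited, and 0 higher and 9 lower after quantile normalization. Actc1, Atp2a2, Mb and Actn2 had a difference of exactly 0 in every comparison as deposited. A change of these markers between groups can therefore not be read. The mean log2 signal of 12 fibroblast markers was 8.91 to 8.97, 8.56 to 8.96 and 7.53 to 7.88 in the same groups, with 6 higher in IRI + RPostC and 5 in IRI and 0 lower as deposited, against 1 and 2 higher and 4 lower in each after quantile normalization. Endothelial markers (6 measured) had 10.1 to 10.2, 9.81 to 10.7 and 7.69 to 8.16, with 4 higher and 0 lower in each comparison as deposited and 2 higher and 2 lower after quantile normalization. Of 9 macrophage markers 3 were higher in IRI + RPostC and 1 in IRI as deposited, where quantile normalization gave 1 higher and 1 lower in IRI + RPostC and 0 higher and 1 lower in IRI. Of 6 neutrophil markers 3 were higher in each comparison, also after quantile normalization, with Mpo under the background limit on all arrays. Of 5 platelet markers Pf4 alone passed in IRI, by 2.34 (adjusted p = 0.0409), and 0 passed in IRI + RPostC, while Itga2b differed from control by 0.01 in IRI + RPostC and 0.04 in IRI. Of 7 smooth muscle and pericyte markers, 0 were higher and 1 was lower in each comparison as deposited, and 0 higher and 3 lower after quantile normalization. The part of these markers in the differences of Thbs1, Ccn1 and Sparc was not tested.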

How the data were processed

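Left ventricular RNA was measured on 9 arrays, 3 per group, assigned by the titles in the labels. The authors labelled the RNA, scanned the chips and summarized them by robust multichip analysis, which gave the deposited log2 signals. Software version, genome build and filters: not given in the sources. The methods name a rat gene chip and the series text a human array, and probe sets were named through the rat platform annotation: 22070 of 65403 had 1 symbol and 478 several, and 20887 of 21013 symbols matched a RefSeq table. The 123 control probe sets were left out.

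The deposited log2 values were tested without further normalization by lmFit and eBayes of limma 3.58.1 under R 4.3.3 (a fit of 3 groups at once, prior degrees of freedom 1.10), with Benjamini-Hochberg adjustment over 65403 probe sets and a threshold of 0.05. The step was tested on simulated data with normal noise, in which 100 probe sets changed by a log2 of 1 and 100 by 2. For IRI against control 59% of changes of 1 and 90% of changes of 2 were recovered, with 11 false calls. Between IRI + RPostC and IRI it was 63% and 90%, with 9 false calls, so changes of 1 were missed in part. In the simulation all other probe sets had the same mean in every group and no repeated identical values. In the data 16.2% were called in IRI against control, so these recovered shares need not hold there. The array number limits the precision. Each member has 1 probe set, and 0 columns of other series were present. Other genes named are mostly those of a list with an adjusted p under 0.05 or one of the smallest p in a comparison. Some genes of the lists are named because they did not pass, lay under the background limit or had a difference of exactly 0. Genes named for their correlation are among the 3 most correlated with a member in the searched set. The members and lists were chosen with earlier results of these data known. Same-numbered arrays did not vary together. The alternatives were quantile normalization, centring on the median or on the hybridization controls, array weights, 2 groups fitted alone, trend and robust settings, removal of dim probe sets, of probe sets at 19 or more and, chosen after the data were seen, of those with a group of identical values, a block on the replicate number, the methods' t-test, and omission of each array. Python 3.11.15 with pandas 2.3.3, numpy 2.4.6, scipy 1.17.1 and matplotlib 3.10.9 handled tables and figures. Infarct size, TUNEL and quantitative PCR were not analysed here.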

Additional observations from a re-analysis of the deposited data

How the results depend on the processing

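Of 484 differences of the 10 genes computed under an alternative, 448 kept their call and direction or stayed uncalled. Another 17 lost the call, 13 gained one and 6 turned in direction with a call. Among the 448, the sign differed in 21 with neither value called. The turned values were Sparc after quantile normalization (-2.65 in IRI + RPostC and -2.57 in IRI against control), Ccn2 in IRI after quantile normalization (-0.45), and, after centring on the hybridization controls, Ccn2 in IRI + RPostC (0.68) and Thbs4 (0.71) and Tnc (0.79) in IRI; the cause was not tested. That centring called 41886 probe sets and 9 of the 10 genes in IRI + RPostC against control, 47803 and 10 in IRI against control, and 208 and 1 (Postn) between IRI + RPostC and IRI, beside 11572 and 4, 10603 and 4, and 0 and 0 as deposited. For the genes named here, its adjusted p-values followed the size of the difference and not the spread of each gene between arrays. The methods' t-test, which pools no spread across probe sets, called 7352 in IRI + RPostC and 6430 in IRI against control. With probe sets whose values were identical throughout a group removed, Thbs1, Thbs3, Ccn2 and Sparc could not be tested, of which Thbs1 and Sparc were called as deposited. Of the 6 genes left, 2 were called in each comparison with control. Over all probe sets left, 9020 were called in IRI + RPostC and 8057 in IRI against control.

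Leaving out 1 array gave 8990 to 11504 called probe sets and 3 to 4 of the 10 genes in IRI + RPostC, 8601 to 10482 and 2 to 4 in IRI against control, and 0 and 0 between IRI + RPostC and IRI; the 2 was reached without IRI replicate 1 and without IRI replicate 2, where Thbs2 and Sparc were lost. The arrays share only a replicate number: deviations of same-numbered arrays correlated at -0.30 to 0.04, and with the replicate block 10122, 9160 and 0 probe sets and 4, 3 and 0 of the 10 genes were called in the 3 comparisons, Thbs2 in IRI being the call lost. Averaging all probe sets of a gene was not run, because each gene has 1. With 3 arrays per group, repeated identical values and signals above the scan range limit what can be read: the size of the Thbs1 and Sparc differences, and any difference of Thbs3, Thbs4, Tnc or Spp1 near background.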
